A study of Mus musculus with 2 samples.

Results

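The regions described here were weakly accessible sites of mouse epidermal chromatin at which a peak was called in the library of the stretched mouse and none in the library of the untreated mouse. They were chosen by their counts and peak calls, as the autosomal merged regions with 20 to 99 counts summed over both libraries that overlapped at least 1 stretched peak and no control peak by 1 bp or more. This gave 13336 regions, 22.8% of the 58514 weak autosomal regions, out of 109257 merged regions in all. The other weak regions had a control peak only (8570, 14.6%), a peak in both libraries (22126) or a peak in neither (14482). The assay was ATAC-seq, which marks open chromatin by letting Tn5 transposase cut it and add adapters for sequencing. The cells were ITGA6-positive, CD34-negative basal cells sorted from the interfollicular epidermis of back skin, and 10000 of them went into each library. ITGA6 is part of the integrin that holds basal cells to the basement membrane, and stem cells of the hair follicle carry CD34. The 2 groups were 1 mouse each, both of the outbred stock CD1: a mouse subjected to tissue stretching that expanded its skin (the stretched library) and an untreated mouse (the control library). Not given in the sources used here are the age and sex of the mice and the duration of stretching. With 1 library per group there was no replicate check and no test was run. All intervals are exact at 95% for counts taken as independent, and counting error below is meant in this sense. With 1 mouse per group, they leave out the variation between mice and between libraries. Copies made by PCR were not marked with molecular identifiers, and the counted unit is not given. The intervals of the folds may therefore be too narrow even for counting error.

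Most regulatory elements of a mammalian genome lie away from gene starts. Enhancers, the distal elements that raise transcription of a gene from a distance, usually open in fewer cell types than promoters do, and often in only some cells of a population, so that many give weak ATAC-seq signals. In epidermal keratinocytes such elements are commonly bound by the transcription factors p63, AP-1, TEAD, KLF, GRHL and C/EBP. AP-1, a dimer of FOS and JUN proteins, and TEAD, the DNA-binding partner of YAP, are well known to act in cells under mechanical load. A peak call compares the fragments piled up at a site with the local background of the same library, so its presence in a single library also depends on depth and on how close the site lies to the caller's threshold.

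Promoter sequence was at hand for few of the regions, because most of them lay far from any annotated start. In all, 394 overlapped a RefSeq start window (250 bases before to 50 bases after an annotated start, build GRCm38.p6), and 149 of them held the whole 250 bases before the start of a protein-coding gene. The first 6 sequences are the upstream bases of those starts whose region had the largest stretched peak enrichment. The other 4 belong to genes with known roles in epidermis or wound repair that have 3 or more of the regions or stand on a gene list, and were picked after their values were seen. Each is written 5′ to 3′ in the direction of the gene, and lies wholly inside its region. Capitals mark matches on either strand to the letters of AP-1 (TGANTCA), TEAD (GGAATG), RUNX (TGTGGT), C/EBP (TTGCNNAA), GRHL (AACCGGTT), KLF/SP (GGGCGG), NF-kB or NFI, none of which overlapped another in these sequences.
1700014D04Rik (chr13:59746872-59747121, minus strand): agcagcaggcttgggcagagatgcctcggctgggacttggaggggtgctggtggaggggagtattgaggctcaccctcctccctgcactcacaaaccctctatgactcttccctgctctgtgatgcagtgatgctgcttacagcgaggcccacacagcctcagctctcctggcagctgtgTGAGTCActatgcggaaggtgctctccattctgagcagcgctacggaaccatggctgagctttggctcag
Stx19 (chr16:62814426-62814675, plus strand): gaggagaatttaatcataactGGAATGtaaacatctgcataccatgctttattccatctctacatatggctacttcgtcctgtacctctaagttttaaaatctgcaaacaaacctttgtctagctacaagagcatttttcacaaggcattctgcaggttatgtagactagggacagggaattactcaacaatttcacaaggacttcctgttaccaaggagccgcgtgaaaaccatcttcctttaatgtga
Skint7 (chr4:111972677-111972926, plus strand): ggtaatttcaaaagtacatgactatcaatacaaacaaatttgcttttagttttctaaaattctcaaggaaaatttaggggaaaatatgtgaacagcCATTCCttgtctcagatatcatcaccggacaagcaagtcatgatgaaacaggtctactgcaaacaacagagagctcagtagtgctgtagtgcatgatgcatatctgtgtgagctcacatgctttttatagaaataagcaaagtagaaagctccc
Gm28455 (chr7:39487111-39487360, plus strand): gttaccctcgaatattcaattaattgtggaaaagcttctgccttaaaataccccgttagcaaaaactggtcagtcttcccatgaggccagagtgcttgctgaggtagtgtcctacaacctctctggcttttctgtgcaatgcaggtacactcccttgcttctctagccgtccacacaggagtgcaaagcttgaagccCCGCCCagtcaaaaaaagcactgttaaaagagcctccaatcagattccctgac
C1d (chr11:17257438-17257687, plus strand): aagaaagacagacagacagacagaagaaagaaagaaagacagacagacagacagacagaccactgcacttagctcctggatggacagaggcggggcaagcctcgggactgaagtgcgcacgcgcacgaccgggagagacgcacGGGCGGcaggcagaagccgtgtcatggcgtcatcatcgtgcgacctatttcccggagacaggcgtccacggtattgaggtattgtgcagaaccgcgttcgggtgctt
C3ar1 (chr6:122856158-122856407, minus strand): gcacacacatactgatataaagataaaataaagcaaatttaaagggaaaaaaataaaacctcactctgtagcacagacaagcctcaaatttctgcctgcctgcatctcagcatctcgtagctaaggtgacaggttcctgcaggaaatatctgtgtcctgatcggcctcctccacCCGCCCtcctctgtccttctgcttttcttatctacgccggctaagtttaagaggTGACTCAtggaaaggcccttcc
Serpinb12 (chr1:106934199-106934448, plus strand): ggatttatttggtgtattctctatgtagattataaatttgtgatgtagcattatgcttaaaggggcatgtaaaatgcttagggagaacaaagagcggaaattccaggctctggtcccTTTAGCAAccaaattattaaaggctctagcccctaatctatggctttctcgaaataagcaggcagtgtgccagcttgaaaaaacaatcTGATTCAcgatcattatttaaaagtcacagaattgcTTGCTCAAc
Mmp13 (chr9:7272264-7272513, plus strand): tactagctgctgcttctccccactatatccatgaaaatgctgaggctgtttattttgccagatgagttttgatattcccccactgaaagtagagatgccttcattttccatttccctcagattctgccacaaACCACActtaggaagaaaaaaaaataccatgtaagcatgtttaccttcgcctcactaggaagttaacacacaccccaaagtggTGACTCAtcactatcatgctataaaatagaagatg
Slpi (chr2:164356508-164356757, minus strand): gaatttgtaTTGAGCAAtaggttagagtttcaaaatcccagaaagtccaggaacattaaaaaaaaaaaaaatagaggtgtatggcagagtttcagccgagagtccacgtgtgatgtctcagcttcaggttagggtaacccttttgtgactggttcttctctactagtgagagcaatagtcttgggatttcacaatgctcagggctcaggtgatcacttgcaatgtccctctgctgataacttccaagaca
Hal (chr10:93488518-93488767, plus strand): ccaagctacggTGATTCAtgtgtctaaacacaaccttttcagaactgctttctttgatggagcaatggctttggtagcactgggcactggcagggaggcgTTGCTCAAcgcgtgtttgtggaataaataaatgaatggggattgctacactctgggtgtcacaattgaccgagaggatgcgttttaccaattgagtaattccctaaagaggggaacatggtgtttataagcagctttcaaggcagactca

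Among these, 1700014D04Rik had 51 counts in the stretched library, against 16 in the control library, and a match to the AP-1 letters. Stx19, which encodes a syntaxin, a protein of membrane fusion, had 52 counts in the stretched library, against 18 in the control library, and a TEAD match. C3ar1, the receptor of complement fragment C3a, had 39 counts in the stretched library, against 16 in the control library, and an AP-1 match close to its start. The fold, stretched over control after scaling, was 3.37 (1.89 to 6.33) for 1700014D04Rik, 3.05 (1.76 to 5.54) for Stx19 and 2.58 (1.41 to 4.94) for C3ar1, so the intervals of all 3 excluded 1. C1d, a cofactor of the nuclear exosome, had 67 counts in the stretched library, against 29 in the control library, a fold of 2.44 (1.56 to 3.92). Slpi, a secreted inhibitor of leukocyte proteases, had 32 counts in the stretched library, against 16 in the control library, a fold of 2.11 (1.13 to 4.12). The remaining starts had counts that lay closer together, and their intervals held 1. Skint7, of a family expressed in skin and thymus, had 42 counts in the stretched library, against 37 in the control library. Gm28455 had 28 counts in the stretched library and 19 in the control library. Hal, the epidermal enzyme that makes urocanic acid from histidine, had 27 counts in the stretched library, against 18 in the control library. Serpinb12, a protease inhibitor, had 16 counts in the stretched library and 15 in the control library, and Mmp13, a collagenase, had 15 counts in the stretched library and 14 in the control library. At Serpinb12, Mmp13 and Hal an AP-1 match was present beside counts that differed by less than counting error. Of the starts that qualified by gene but are not printed, Lhx6 was called lower and had an AP-1 match. It had 29 counts in the stretched library, against 64 in the control library, a fold of 0.479 (0.298 to 0.754). Irgm2 and Kat2b were called higher, with folds of 2.43 (1.11 to 5.72) and 2.26 (1.16 to 4.62) in that order, and the intervals of the rest held 1.

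Over the 312 start windows that regions with a stretched peak only covered by at least 150 bases, the AP-1 letters were present in 18.6% (14.4 to 23.4). The share was 9.21% (5.79 to 13.7) in 228 windows under weak regions with a control peak only, 10.7% (8.87 to 12.7) in 1049 windows under weak regions with a peak in both, and 16.7% (12.6 to 21.4) in 294 windows under weak regions with no peak. Of all 32817 start windows of the same length, 7.81% held the letters. The stretched-only share therefore lay above those of the control-only and both classes beyond counting error, and its interval overlapped that of the regions with no peak. The TEAD letters were in 17.6% (13.6 to 22.3) of the stretched-only windows, against 12.3% (8.32 to 17.3) of the control-only windows and 14.7% of all windows. The RUNX letters were in 10.6% (7.39 to 14.5) of the stretched-only windows, against 14.5% (10.2 to 19.7) of the control-only windows and 16.8% of all windows. The C/EBP letters were in 11.9% of the stretched-only, 10.5% of the control-only and 10.8% of all windows. KLF/SP letters were in 42.6% (37.1 to 48.3) of the stretched-only windows, against 33.3% (27.2 to 39.9) of the control-only windows, 43.4% of the windows of the both class and 35.6% of all windows. An E-box, CANNTG, was in 70.8% (65.4 to 75.8) of the stretched-only windows, 79.4% (73.5 to 84.4) of the control-only windows and 72.3% of all windows. GRHL letters were in 0.321% of the stretched-only windows, and NF-kB and NFI letters in 0 of the 312, which allows shares of up to 1.18%. Median GC content was 55.2% in the stretched-only windows, against 54.8% in the control-only windows. These are matches of letters in the few regions at annotated starts, and the intervals of the TEAD, RUNX, C/EBP, KLF/SP and E-box shares overlapped between the stretched-only and control-only classes.

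A peak in the stretched library alone did not mean a large difference in counts. The counts and peaks of this contrast chose the regions, so their values are given as a description. Regions with a stretched peak only had a median of 22 counts in the stretched library (3 to 83), against 17 in the control library (0 to 68). The raw stretched count was above the control count in 9159 regions (68.7%), equal to it in 490 and below it in 3687 (27.6%), so the ranges of the libraries overlapped almost fully. After TMM scaling, the median log2 fold of stretched over control was 0.47, with quartiles of -0.02 and 0.98. A fold of at least 2 with an interval that excluded 1, the rule for calling a difference, was reached upward in 2814 regions (21.1%) and downward in 157 (1.18%) under TMM scaling, against 954 upward and 899 downward under total-count scaling. Over all weak autosomal regions the same rule was passed under TMM by 7.62% upward and 12.3% downward. In 9827 regions (73.7%) the interval of the fold held 1. Under total-count scaling the median log2 fold was -0.033, the opposite sign, since that scaling lowers every log2 fold by 0.50 and so multiplies every fold by 0.707. Counts outside the 10 regions that held over 10000 counts each summed to 6027023 in the stretched and 5776423 in the control library, and scaling on these gave a median log2 fold of 0.33. Relative to all weak regions, whose median was -0.13 under TMM and -0.63 under total counts, the median of the stretched-only regions was higher by 0.59 under both scalings. Any fold below 1.41 in the following is thus below 1 under total-count scaling.

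**Figure D1:**
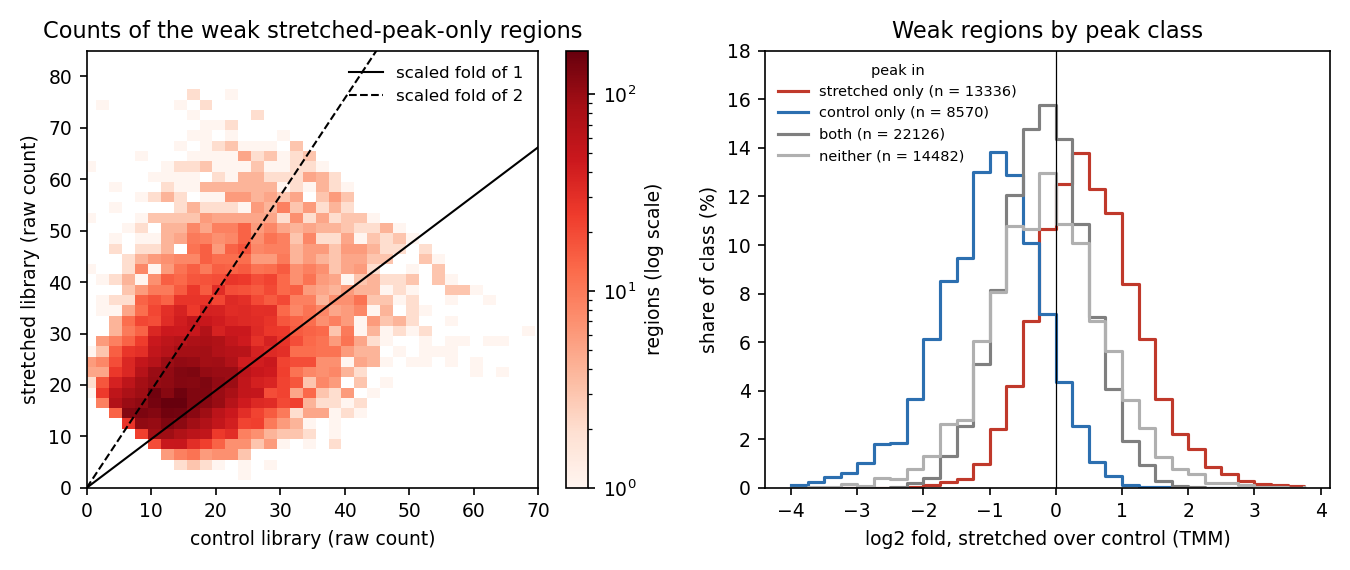
Left, the raw count of each of the 13336 regions with a stretched peak only in the stretched library (vertical axis) and in the control library (horizontal axis), with colour for the number of regions on a log scale and lines at scaled folds of 1 and 2. Right, the share of each peak class by log2 fold, stretched over control after TMM scaling; the stretched-only curve centres on 0.47 and the control-only curve on -0.92, and both reach across 0.

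The weak control-only regions were the mirror class. They had a median of 13 counts in the stretched library and 26 in the control library, a median log2 fold of -0.92, and 3600 of 8570 (42.0%) called lower. The stretched-only regions therefore had a smaller count difference in their own direction than the control-only regions had in theirs, under TMM scaling. The lowest summit pileup of a listed peak was 9 fragments in the stretched library and 11 in the control library, and after filtering the stretched library held 23876613 fragments and the control library 31944854. The part that this difference in depth and threshold had in the classes was not tested. The peaks of the stretched-only regions had a median enrichment of 3.85 (1.82 to 17.3), a median summit pileup of 15 fragments (9 to 71) and a median -log10 q of 4.82 (1.30 to 65.1), all authors' values. Stretched peaks of weak regions with a peak in both had a higher median enrichment of 4.87 and a median pileup of 19. In 1507 stretched-only regions (11.3%) the deposited stretched count was below the pileup at the summit, as it was for 7.89% of the weak regions with a peak in both.

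The class changed in size along the count scale. Stretched-only regions made up 23.1% of the weak regions with 20 to 29 counts, 32.3% of those with 30 to 39, 28.8% of those with 40 to 59, 14% of those with 60 to 79 and 6.6% of those with 80 to 99. The share with a peak in both was 2.13% in the lowest of these bins and 87.3% in the highest. Just inside the lower limit, 1265 regions with 20 to 24 counts had medians of 13 counts in the stretched and 9 in the control library, and just outside it 720 regions with 15 to 19 counts had 11 in the stretched and 6 in the control library. Just inside the upper limit, 78 regions with 95 to 99 counts had medians of 56 counts in the stretched and 40 in the control library, and just outside it 68 regions with 100 to 104 counts had 56 in the stretched and 46 in the control library. The limits thus cut through a continuous range of values.

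The regions lay mostly away from genes' ends. Only 783 of them (5.87%, 5.48 to 6.28) lay within 1 kb of an annotated end of a protein-coding gene, against 7.36% (6.82 to 7.94) of the control-only regions, and 301 (2.26%) touched an end. A distance over 50 kb was found for 32.1% (31.3 to 32.9), against 28.1% (27.1 to 29) of the control-only regions, and a distance over 200 kb for 8.30%, against 6.25% of the control-only regions. Inside a protein-coding gene lay 50.4% (49.5 to 51.2) of the stretched-only regions, against 55.1% (54.1 to 56.2) of the control-only regions. The median distance to the nearest end was 23331 bp in the stretched-only class and 19666 bp in the control-only class. The stretched-only regions were therefore farther from genes than the control-only regions by more than counting error. In these distances to gene ends they were not set apart from the class with a peak in both. Brought to the same mix of counts and widths, that class had 5.90% within 1 kb and 32.1% beyond 50 kb. The control-only class had 7.63% and 28.1% in that order. Stretched-only regions were also farther from strong regions, those with 100 counts or more, with 35.3% (34.5 to 36.2) within 10 kb of such a region. The share was 40.2% (39.2 to 41.3) for the control-only regions and 37.5% (36.9 to 38.2) for weak regions with a peak in both. These shares were not brought to the same mix of counts and widths.

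The classes also differed in gene density. For each weak region the protein-coding genes centred within 500 kb were counted. Where there were none, 33.7% (30.4 to 37.0) of the weak regions had a stretched peak only and 12.9% a control peak only. The stretched-only share was 29% at 1 to 2 genes, 26.7% at 3 to 5, 24.5% at 6 to 10, 19.5% at 11 to 20, 16.4% at 21 to 40 and 14.6% (13.0 to 16.3) above 40 genes, while the control-only share was 17.5% in the densest bin. There were 2.61 stretched-only regions per control-only region in the emptiest bin and 0.832 in the densest, while the share with a peak in both stayed between 35.4% and 38.8%. The median log2 fold of the stretched-only regions themselves was 0.76 in the emptiest bin and 0.17 in the densest bin under TMM scaling. With stretched peaks limited to a -log10 q of at least 3, the shares were 21% at 5 or fewer genes and 11.3% above 20 genes, so the order was kept. Sequence composition of the regions, which varies with gene density, was not analysed here, and its part in the pattern was not tested.

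**Figure D2:**
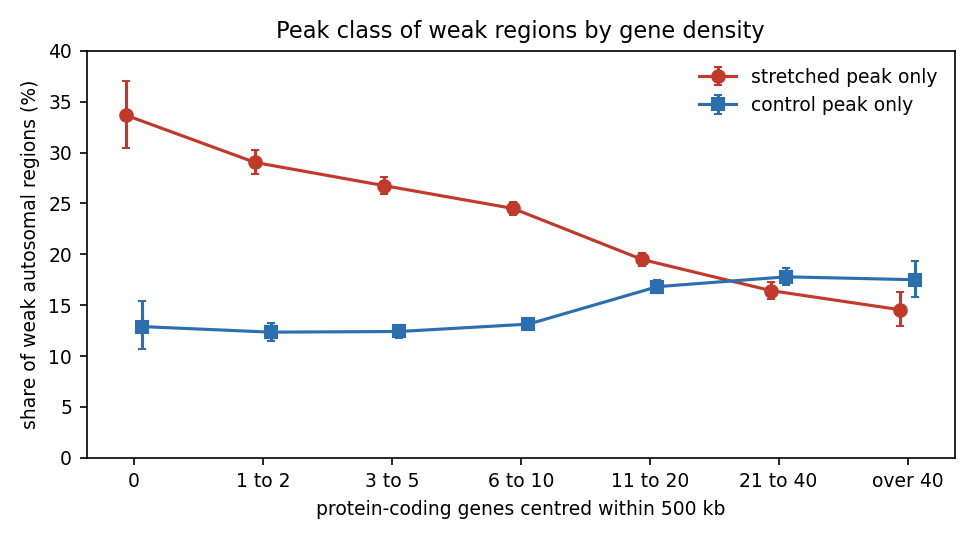
Share of the weak autosomal regions with a stretched peak only (red circles) and a control peak only (blue squares), in percent, by how many protein-coding genes had their centre within 500 kb, with exact 95% counting intervals as bars. The stretched-only share is 33.7% where no gene is near and 14.6% in the densest bin, and crosses the control-only share above 20 genes.

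Chromosomes at the extremes followed the same order. The stretched-only share was highest on chromosome 3 (27.5%, 26.0 to 29.1), chromosome 10 (26.1%) and chromosome 1 (25.2%), where the weak regions had a median of 8, 7 and 8 genes within 500 kb. It was lowest on the gene-rich chromosome 11 (16.7%, 15.5 to 17.9), where the median was 16 genes. Chromosome 11 was the only autosome with fewer stretched-only than control-only regions, 0.882 per control-only region. Density alone did not order the chromosomes, since chromosome 13, with a median of 6 genes, had a share of 23.3% (21.8 to 24.9).

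Within 50 kb of an annotated gene end lay 9057 of the 13336 regions, 21.8% of the 41616 weak regions assigned in this way, and they were assigned to 5993 genes. A single region each was assigned to 4014 genes and a pair each to 1270 genes. Of the genes with 3 or more, 472 had 3, 143 had 4, 61 had 5, 23 had 6, 8 had 7 and 2 had 8. These 709 genes took 2503 of the assigned regions (27.6%). Genes with more weak regions had more chances to reach 3: the 709 had a median of 7 weak regions each and a median length of 84.1 kb, against 4 weak regions and 45.7 kb over the 6119 genes with at least 3 weak regions of any class. In 64 of the 709 every weak region had a stretched peak only, and 413 had no control-only region. No share over all genes is given for these counts, and the 709 were chosen by their stretched-only regions. The 349 genes with 3 or more control-only regions were of like length, with a median of 83.0 kb. They had a median of 13 genes within 500 kb, against 8 for the 709. Of the 709 genes, 33 were in both sets. Over all genes with at least 3 weak regions, 349 of 6119 had 3 or more control-only regions. The 709 had more weak regions each than the 6119, so these shares are not at equal chance and no conclusion is drawn from them.

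Strong regions of the same genes, which the choice of the weak regions did not use, can be set beside them. The 709 genes had 2410 strong regions, with a median log2 fold of 0.28, of which 167 (6.93%) were called higher and 40 (1.66%) lower. Over all strong autosomal regions 5.93% were called higher and 2.9% lower, and the 27921 strong regions assigned to a gene had a median of 0.14. The 349 genes with 3 or more control-only regions had 1495 strong regions, with a median of -0.24, of which 1.27% were called higher and 9.10% lower. These come from the same pair of libraries. The share called higher at the 709 genes was near the share over all strong regions, and the share called lower was below it.

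The 30 genes taken for description all had 6 or more regions. Adgrg6, Gnai1 and Itprid2 had 6 as well and were left out, since ties went to genes with the larger share of stretched-only among their weak regions, and their pooled folds were 1.15, 1.71 and 1.46 in that order. After pooling the stretched-only regions of each gene, the fold ranged between 0.943 and 2.56 with a median of 1.47. Under TMM scaling it was above 1 at 28 genes, with an interval above 1 at 21 and below 1 at 0. Under total-count scaling it was above 1 at 18 genes, with an interval above 1 at 8 and below 1 at 4. Over all 709 genes it was above 1 at 631 under TMM scaling, with an interval above 1 at 361 and below 1 at 9. Under total-count scaling it was above 1 at 365 of the 709, with an interval above 1 at 94 and below 1 at 83. The counts of this contrast chose the regions, so these numbers are a description. Of the 30, 4 reached a fold of 2 or more under TMM scaling, Sema3e, Abcg2, Osbpl8 and Anxa1, as did 86 of the 709. A region within 1 kb of the gene's end was present at 3 of the 30.

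**Figure D3:**
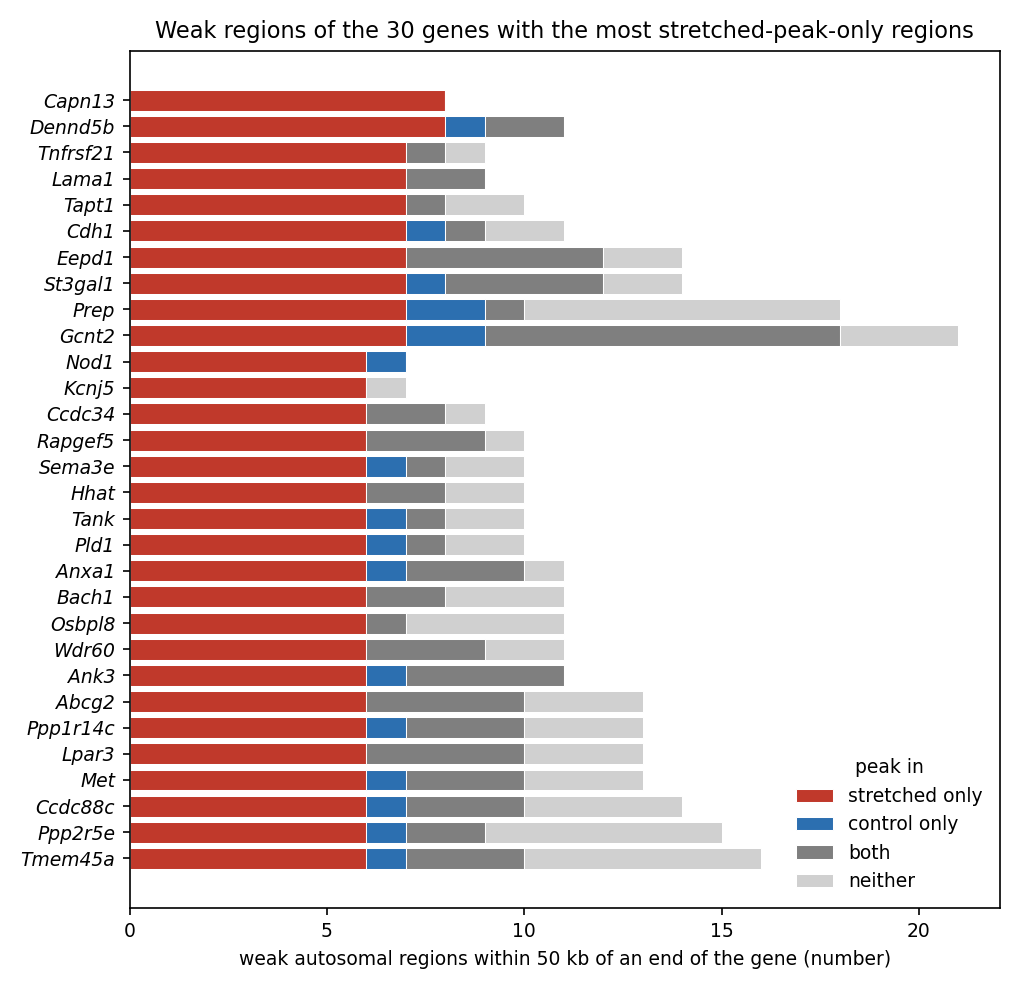
Number of weak autosomal regions within 50 kb of an end of each of the 30 genes with the most stretched-peak-only regions, split by the library in which a peak was called. All 8 weak regions of Capn13 had a stretched peak only, whereas Gcnt2 had 7 such regions among 21.

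The largest pooled fold of the 30 was at Sema3e. Sema3e, a secreted semaphorin that binds plexin D1, lies at chr5:14025276-14256689 (GRCm38, as for all coordinates here) and had 6 regions with 14, 31, 71, 21, 45 and 17 counts in the stretched library, against 8, 18, 20, 12, 17 and 7 in the control library. The stretched count was the higher one at all 6, and the pooled fold was 2.56 (1.97 to 3.36). Lama1, the laminin alpha-1 chain of basement membranes, at chr17:67697127-67822645, had 7 regions with 18, 25, 23, 28, 31, 16 and 17 counts in the stretched library, against 20, 12, 17, 23, 13, 12 and 3 in the control library. There the stretched count was the higher one at 6 of 7, the pooled fold was 1.67 (1.29 to 2.17), and 3 regions were called higher. Cdh1, which encodes E-cadherin, the adhesion protein of keratinocyte adherens junctions, had 7 regions and no such difference. Its counts were 6, 18, 40, 20, 16, 24 and 22 in the stretched library, against 14, 16, 28, 29, 14, 35 and 22 in the control library. The stretched count was the higher one at 3, equal at 1 and the lower one at 3, and the pooled fold was 0.976 (0.774 to 1.23), with 0 of 7 called.

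Capn13, a calpain protease gene at chr17:73306456-73399381, had the most regions together with Dennd5b, which encodes a DENN domain protein of vesicle traffic. The 8 regions of Capn13 had 17, 15, 8, 20, 17, 12, 16 and 37 counts in the stretched library, against 26, 8, 16, 18, 20, 13, 4 and 16 in the control library. The higher count was in the stretched library at 4 of 8 and in the control library at the other 4, with a pooled fold of 1.24 (0.966 to 1.59). The 8 regions of Dennd5b had 28, 11, 18, 21, 13, 24, 24 and 32 counts in the stretched library, against 26, 13, 26, 12, 7, 8, 16 and 15 in the control library. Its pooled fold was 1.47 (1.16 to 1.87), and the stretched count was the higher one at 6 of 8.

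The other 3 genes with a pooled fold of at least 2 were Osbpl8, Abcg2 and Anxa1. Osbpl8, a lipid transfer protein of contacts between the endoplasmic reticulum and the plasma membrane, had 6 regions with 35, 33, 39, 38, 19 and 15 counts in the stretched library, against 12, 15, 17, 19, 8 and 6 in the control library. All 6 were higher in the stretched library, 5 of them by the rule, with a pooled fold of 2.46 (1.87 to 3.25). Abcg2, an efflux transporter, had 18, 19, 14, 48, 24 and 50 counts in the stretched library, against 10, 11, 9, 13, 6 and 24 in the control library. Its pooled fold was 2.50 (1.89 to 3.34), and all 6 regions had the higher count in the stretched library. Anxa1, annexin A1, a calcium-dependent phospholipid-binding protein that limits inflammation, had 40, 39, 26, 33, 38 and 36 counts in the stretched library, against 28, 33, 10, 15, 10 and 10 in the control library. Its pooled fold was 2.11 (1.67 to 2.69), with 4 of 6 called higher. Gcnt2, which branches poly-N-acetyllactosamine chains, had 38, 24, 16, 12, 19, 40 and 32 counts in the stretched library, against 16, 12, 17, 11, 16, 17 and 16 in the control library. Here 4 of 7 were called higher, with a pooled fold of 1.82 (1.42 to 2.34).

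**Figure D4:**
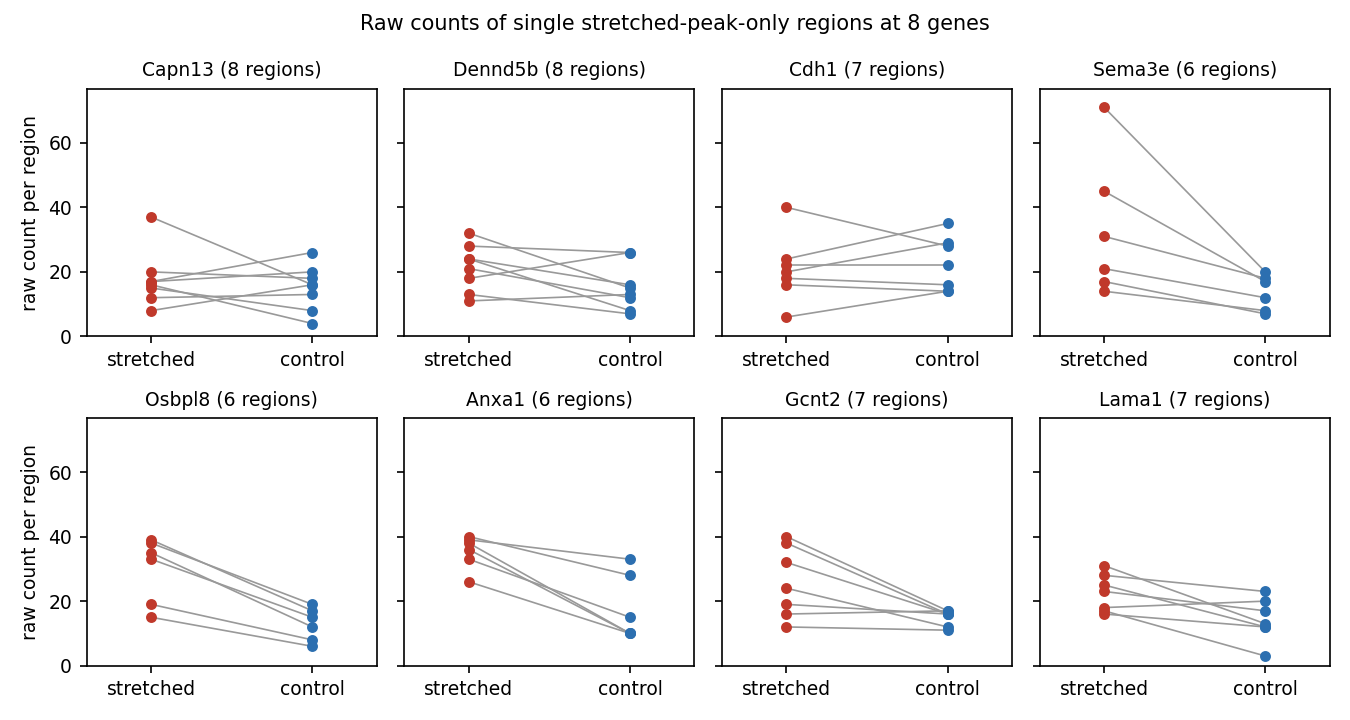
Raw counts of every stretched-only region of 8 of the 30 genes in the stretched library (red, left) and in the control library (blue, right), with a line joining the counts of each region. The lines fall to the control side at all 6 regions of Sema3e, Osbpl8 and Anxa1, and run in both directions at Capn13 and Cdh1.

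Among receptors and regulators, Met, the receptor of hepatocyte growth factor, had 28, 28, 18, 23, 18 and 23 counts in the stretched library, against 20, 20, 3, 14, 17 and 15 in the control library, with a pooled fold of 1.64 (1.25 to 2.16). Bach1, a haem-regulated repressor of antioxidant genes, had 37, 24, 25, 40, 23 and 39 counts in the stretched library, against 29, 19, 10, 14, 15 and 16 in the control library, with a pooled fold of 1.93 (1.51 to 2.48). Both genes had the higher count in the stretched library at all 6 regions. Nod1, an intracellular sensor of bacterial peptidoglycan, had 26, 27, 24, 5, 18 and 39 counts in the stretched library, against 20, 29, 16, 16, 11 and 38 in the control library. Its pooled fold was 1.13 (0.883 to 1.45), and 1 of its 6 regions was called lower despite its stretched peak. Prep, a prolyl endopeptidase, had 20, 25, 15, 5, 18, 24 and 34 counts in the stretched library, against 5, 10, 6, 24, 13, 33 and 19 in the control library, so that 2 regions were called higher and 1 lower. The pooled folds of Rapgef5, a guanine exchange factor for Rap, Wdr60, a dynein subunit of cilia, Tank, a regulator of TRAF proteins, and Tmem45a were 1.90, 1.89, 1.85 and 1.78 in that order, each with an interval above 1. Those of Ppp1r14c, an inhibitor of protein phosphatase 1, Hhat, which acylates hedgehog proteins, and Lpar3, a receptor of lysophosphatidic acid, were 1.74, 1.60 and 1.48, with intervals above 1. Kcnj5, an inwardly rectifying potassium channel, Ccdc34, Prep, Eepd1 and Tapt1 had folds of 1.43, 1.42, 1.35, 1.33 and 1.27 in that order, with intervals above 1. The intervals held 1 at St3gal1, a sialyltransferase, with 1.27, Ppp2r5e, a phosphatase 2A subunit, with 1.17, Ank3, ankyrin-G, with 1.13, and Ccdc88c with 1.07. They also held 1 at Tnfrsf21, death receptor 6, with 1.07 and Pld1, a phospholipase D, with 0.943.

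Counting by the gene that holds a region in its span, at any distance from its ends, brought out long genes. At least 3 stretched-only regions lay inside each of 590 genes. Macrod2, 1998 kb long, held 20 of its 61 weak regions, Sema6d, a membrane semaphorin gene of 578 kb, held 16 of 23, Robo1, an axon guidance receptor gene of 1020 kb, held 15 of 35, and Etl4, of 900.3 kb, held 14 of 38. Lrrc7, of 495 kb, with 9 of 10, is given for its share. Pooled over these regions, Sema6d had 457 counts in the stretched library, against 287 in the control library, a fold of 1.68 (1.45 to 1.96), and just 1 of its 23 weak regions had a control peak only. Robo1 had 382 counts in the stretched library, against 259 in the control library, a fold of 1.56 (1.33 to 1.83). Macrod2 had 555 counts in the stretched library, against 348 in the control library, a fold of 1.69 (1.47 to 1.93), and Etl4 had 264 in the stretched library, against 246 in the control library, a fold of 1.13 (0.950 to 1.35) whose interval held 1. Lrrc7 had 222 counts in the stretched library, against 148 in the control library, a fold of 1.59 (1.28 to 1.96).

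Runs of stretched-only regions, unbroken by any other merged region, were mostly short. Single regions made up 9393 of the runs, and there were 1464 runs of 2, 251 of 3, 41 of 4, 14 of 5, 2 of 6, 1 of 7 and 1 of 9. The longest, of 9 regions, lay inside Robo1 at chr16:72813323-72969182, with 20, 28, 36, 29, 13, 19, 19, 32 and 23 counts in the stretched library, against 18, 22, 22, 22, 18, 12, 14, 13 and 15 in the control library. The stretched count was the higher one at 8 of 9, and the pooled fold was 1.48 (1.20 to 1.83). A run of 7 lay at Ltbp1, which encodes a matrix protein that stores latent TGF-beta, and Rasgrp3, at chr17:75345012-75481601. It had 38, 45, 59, 62, 27, 21 and 14 counts in the stretched library, against 24, 11, 26, 31, 12, 18 and 12 in the control library, a fold of 2.1 (1.70 to 2.60), and all 7 were higher in the stretched library. A run of 6 at Bmpr1b, a BMP receptor, and Unc5c, a netrin receptor, at chr3:141797968-141857610, had 138 counts in the stretched library, against 73 in the control library, a fold of 2.0 (1.49 to 2.69). A run of 6 inside Pik3c2g, at chr6:139623292-139789931, had 177 counts in the stretched library, against 94 in the control library, a fold of 1.99 (1.54 to 2.58).

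The largest folds of single regions rested on few control counts. With a control count of 0 taken as 3 and counts of 1 left as they were, which places the 7 regions with 0 control counts lower in the order, the 12 regions with the largest fold had 20 to 74 counts in the stretched library and 0 to 3 in the control library. The best measured of them, with the most stretched counts, lay at chr15:52002861-52003637, 6296 bp from an end of Gm52217, with 74 counts in the stretched library, against 3 in the control library, a fold of 26.1 (8.58 to 129) and a peak enrichment of 12.8. A region 10551 bp from Ear6, which encodes an eosinophil-associated ribonuclease, had 63 counts in the stretched library and 0 in the control library, at least 22.2-fold higher against 3 counts, the limit that a count of 0 allows, with a 2-sided interval that starts at 17.5. A region 21024 bp from Il1b, which encodes the inflammatory cytokine interleukin-1 beta, had 24 counts in the stretched library, against 1 in the control library. Its fold of 25.4 had an interval between 4.14 and 1043. The regions nearest to Anks1b, Oas1c, Nyap2, Kif16b, Mki67, Prl, Dnajb9, Akain1 and Ccrl2 likewise had 20 to 26 counts in the stretched library and 1 in the control library. Those of Mki67, a proliferation marker, and Dnajb9, a chaperone of the endoplasmic reticulum, lay 96905 bp and 921262 bp away in that order.

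Of the 8 regions with the largest peak enrichment, 6 were called higher, where 21.1% of all stretched-only regions were. The stretched peaks and counts chose the regions, and this order uses the same peaks, so these values are a description. The largest, 17.3, was in a region inside Macrod2 and 71433 bp from Flrt3, with 51 counts in the stretched library, against 17 in the control library. A region inside Abcb11, the bile salt export pump, had 75 counts in the stretched library, against 14 in the control library, an enrichment of 17.0 and a fold of 5.66 (3.17 to 10.8). A region 1209461 bp from Ndufa4, with no protein-coding gene within 500 kb, had 52 counts in the stretched library and 0 in the control library, at least 18.3-fold higher against 3 counts, with a 2-sided interval that starts at 14.4. These 3 were called higher, as were the next 3. The region inside Dok6 had 75 counts in the stretched library, against 18 in the control library. The region nearest to Tspyl5 had 63 counts in the stretched library, against 32 in the control library, and that nearest to Cmtr2, 467 bp from its end, had 70 counts in the stretched library, against 22 in the control library. The regions at Adh1, an alcohol dehydrogenase, with 55 counts in the stretched library, against 34 in the control library, and at Mgat4e, with 54 in the stretched library, against 33 in the control library, had enrichments of 14.5 and 13.6 in that order and folds below 2. At the other end, a region inside Prkg1 had 3 counts in the stretched library, against 24 in the control library, although its stretched summit pileup was 11. It carried a stretched peak and no control peak, and was called lower.

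Gene lists for the tissue and the treatment held 247 of the regions. The clearest departure was at genes of actomyosin and actin assembly, where 31 of 96 weak regions had a stretched peak only, 32.3% (23.1 to 42.6), against 6 (6.25%, 2.33 to 13.1) with a control peak only. Over all assigned weak regions the stretched-only share was 21.8%. The hair follicle list had 9 of 81, 11.1% (5.21 to 20.05), with an interval below that share. The intervals of the other 13 lists held it. The lists were chosen with earlier results of these data known, and list by list no adjustment was made.

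Within the actomyosin list, 15 of the 19 genes with a weak region had a stretched-only one, and 10 of the 31 regions were called higher and 0 lower, where 21.1% of all stretched-only regions were called higher and 1.18% lower by a rule on the counts that chose them. Diaph1, a formin that nucleates actin filaments, had 19, 49, 31 and 38 counts in the stretched library, against 11, 14, 24 and 21 in the control library, a fold of 2.07 (1.54 to 2.80). Twf1, the actin monomer-binding protein twinfilin, had 68, 29 and 47 counts in the stretched library, against 30, 11 and 23 in the control library, a fold of 2.38 (1.76 to 3.24). All regions of Diaph1 and Twf1 were higher in the stretched library, and all 3 of Twf1 by the rule.

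Genes of stress, wound and alarmin signalling had 34 of 131 weak regions with a stretched peak only, 26.0% (18.7 to 34.3), of which 12 were called higher, beside 21.1% called higher over all stretched-only regions. Il33, an alarmin cytokine released by damaged epithelium, had 35, 24, 41, 22 and 64 counts in the stretched library, against 26, 5, 35, 13 and 20 in the control library, a fold of 1.99 (1.55 to 2.56). Rel, an NF-kB subunit, had 41, 53, 10 and 20 counts in the stretched library, against 22, 21, 19 and 8 in the control library, a fold of 1.87 (1.39 to 2.55). All 5 regions of Il33 and 3 of 4 of Rel had the higher count in the stretched library. Serpinb2, a plasminogen activator inhibitor, had 4 regions and a fold of 1.27 (0.901 to 1.79). Cell cycle genes had 14 of 52 (26.9%, 15.6 to 41). There Cdk6, a G1 kinase, had 17, 59, 18 and 18 counts in the stretched library, against 7, 20, 21 and 19 in the control library, so that its fold of 1.77 (1.29 to 2.43) came mainly from 1 region.

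**Figure D5:**
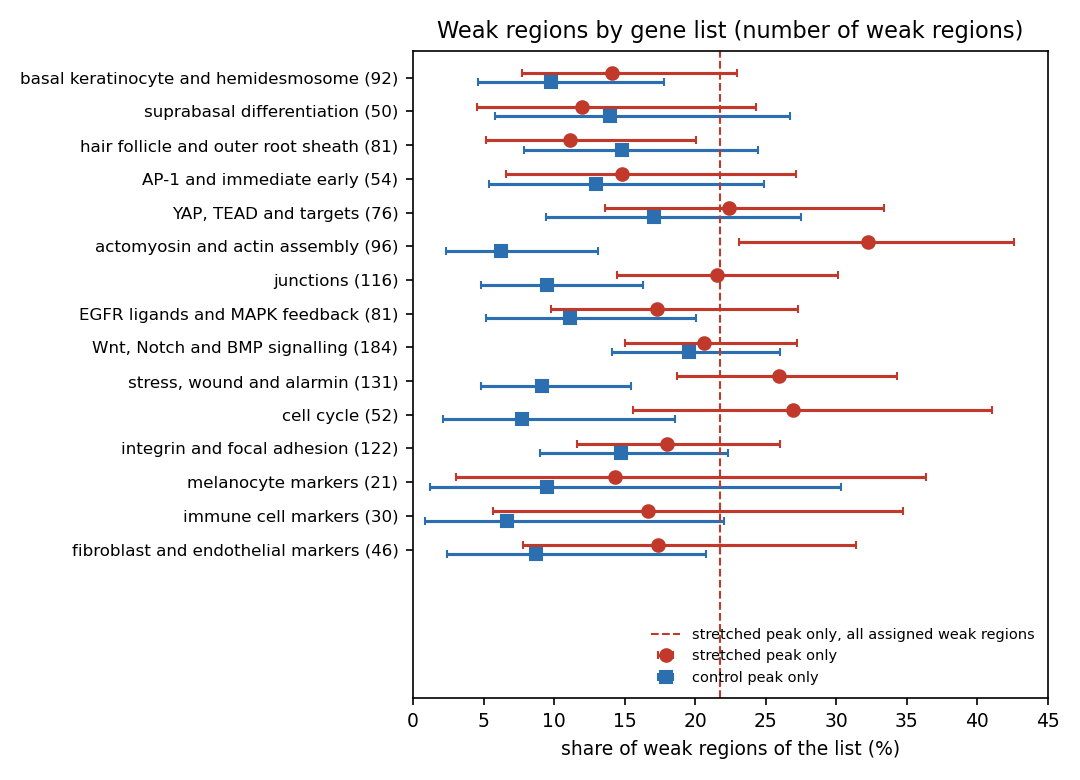
Share of the weak regions of each gene list, in percent, with a stretched peak only (red circles) and with a control peak only (blue squares), with exact 95% counting intervals as bars; the number of weak regions of the list is in brackets and the dashed line marks 21.8%, the stretched-only share over all assigned weak regions. Only the actomyosin list lies above the line beyond its interval and only the hair follicle list below it.

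Lists of the mechanical and growth factor pathways were near the background. YAP, TEAD and their targets had 17 of 76 (22.4%, 13.6 to 33.4), EGFR ligands and MAPK feedback genes 14 of 81 (17.3%, 9.78 to 27.3), AP-1 and immediate early genes 8 of 54 (14.8%, 6.62 to 27.1) and integrin and focal adhesion genes 22 of 122 (18%, 11.7 to 26.0). Yap1, the coactivator of TEAD, had 61, 21 and 15 counts in the stretched library, against 24, 13 and 15 in the control library, a fold of 1.97 (1.39 to 2.82). Ptpn14, a phosphatase that restrains YAP, had 18, 34, 54 and 35 counts in the stretched library, against 29, 51, 27 and 25 in the control library, a fold of 1.13 (0.884 to 1.44). Ereg, the EGFR ligand epiregulin, had 14, 35, 67 and 31 counts in the stretched library, against 22, 20, 26 and 16 in the control library, a fold of 1.85 (1.4 to 2.45). Egfr itself had 38 and 15 counts in the stretched library, against 10 and 10 in the control library. Fos had 32 and 11 counts in the stretched library, against 14 and 16 in the control library, and Klf6, an early response Krüppel-like factor, had 19 and 40 in the stretched library, against 17 and 17 in the control library. At Egfr and Klf6 every region had the higher count in the stretched library, at Yap1 1 of 3 was tied, and at Ptpn14, Ereg and Fos the regions ran in both directions. The focal adhesion genes Fermt2, which encodes the integrin activator kindlin-2, and Itga2, the integrin alpha-2 subunit, each had 3 regions, with folds of 1.29 (0.872 to 1.91) and 1.27 (0.837 to 1.94) in that order.

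Wnt, Notch and BMP genes had 38 of 184 (20.7%, 15 to 27.2) with a stretched peak only and 36 (19.6%) with a control peak only. Lef1, a transcription factor of Wnt signalling, had 5 regions with 13, 12, 20, 11 and 12 counts in the stretched library, against 9, 9, 20, 22 and 15 in the control library, a fold of 0.958 (0.680 to 1.35). Smad7, an inhibitor of TGF-beta signalling, had 4 regions and a fold of 1.17 (0.875 to 1.57). Neither differed beyond counting error when pooled. Junction genes had 25 of 116 (21.6%, 14.5 to 30.1), among them Cdh1 and the tight junction gene Cldn1, with 3 regions and a fold of 1.59 (1.06 to 2.40).

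Basal keratinocyte and hemidesmosome genes had 13 of 92 (14.1%, 7.74 to 23.0). When a region inside a gene was instead assigned to that gene, the basal list had 24 of the regions and Trp63 had 8. Trp63, which encodes the basal regulator p63, had 29, 37 and 27 counts in the stretched library, against 21, 28 and 14 in the control library, a fold of 1.56 (1.12 to 2.18). Cd44, a hyaluronan receptor, had 27, 26 and 47 counts in the stretched library, against 18, 12 and 18 in the control library, a fold of 2.2 (1.55 to 3.17). All 3 regions of each gene had the higher count in the stretched library. Suprabasal differentiation genes had 6 of 50 (12%, 4.53 to 24.3), with 3 at Dsc1, a desmosomal cadherin of the upper layers, which had 22, 36 and 28 counts in the stretched library, against 15, 21 and 21 in the control library. At the follicle genes Lgr5, a stem cell receptor, and Lrig1, each with 2 regions, the pooled folds were 1.53 (0.993 to 2.38) and 0.906 (0.564 to 1.45) in that order.

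Markers of cells outside the sort gate gave small numbers. Immune markers had 5 of 30 regions with a stretched peak only (16.7%, 5.64 to 34.7), melanocyte markers 3 of 21 (14.3%, 3.05 to 36.3), and fibroblast and endothelial markers 8 of 46 (17.4%, 7.82 to 31.4). Ptprc, the leukocyte antigen CD45, had 16 and 20 counts in the stretched library, against 7 and 3 in the control library, a fold of 3.8 (1.85 to 8.60). Cd74 and Spi1, also immune markers, had folds of 1.38 (0.832 to 2.33) and 2.26 (0.869 to 6.56) in that order, and both intervals held 1. Acta2, smooth muscle actin, had 20 and 25 counts in the stretched library, against 10 and 7 in the control library. From the same list, Col1a1, a collagen I chain, had 32 counts over its 2 regions in the stretched library, against 44 in the control library, and Col3a1, collagen III, had 12 in the stretched library, against 9 in the control library. Dct, a melanocyte enzyme, had 26 in the stretched library, against 7 in the control library, at a single region. Mitf, also of the melanocyte list, had 56 counts over its 2 regions in the stretched library, against 40 in the control library. Its fold of 1.48 (0.969 to 2.28) had an interval that held 1. Within 1 kb of the ends of defining markers, the counts summed to 1823 in the stretched and 1623 in the control library for 6 basal genes. They summed to 529 in the stretched and 562 in the control library for 4 follicle genes and to 512 in the stretched and 552 in the control library for 4 suprabasal genes. Lower sums were found for 4 melanocyte genes (162 in the stretched, 188 in the control library), 4 fibroblast genes (73 in the stretched, 134 in the control library), 4 immune genes (49 in the stretched, 32 in the control library) and 3 endothelial genes (37 in the stretched, 45 in the control library). The basal markers were thus open in both libraries, and those of the other cell types had lower sums in both, none of them 0. These sums are over unequal numbers of genes and regions. Basal, follicle and suprabasal markers each had 8 regions within 1 kb, and the other types 2 or 1. Stretched and control peaks there numbered 8 and 8 for basal, 7 and 8 for follicle and 6 and 7 for suprabasal markers. Follicle and suprabasal markers thus also had peaks in both libraries. The other types had 0 to 2 peaks per library. The part of other cells in the stretched-only regions was not tested. A change in the number of cells of a type and a change in openness per cell cannot be told apart in libraries of pooled cells.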

How the data were processed

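ATAC-seq libraries of 1 stretched and 1 untreated CD1 mouse were grouped by their treatment label. GRCm38 is the build in the submitters' processing notes, which list HTSeq, MACS2 2.1.0.20151222, Picard, SAMtools and Bowtie2 2.2.6 as tools. Per the file headers, peaks were called by MACS2 on each library alone, with paired-end fragments, no control file and a q cutoff of 0.05. The deposited pileup at a summit is a signal in fragments, and the deposited -log10 q-value and the deposited fold enrichment (a ratio) measure each peak against the background around it. The deposited counts are raw counts over 109257 merged regions, with totals of 11803785 in the stretched and 8820178 in the control library. Not given in the sources used here are the counted unit (reads or fragments), the treatment of duplicates and of Tn5 shifts before counting, and the peak lists behind the merged regions.

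Scaling factors came from TMM on the whole table (edgeR 4.0.16, R 4.3.3). Folds are stretched over control, with the exact Clopper-Pearson interval of the stretched share, and a count of 0 was set to 3 per library for a point value. A difference was called at a fold of at least 2 with an interval excluding 1, a rule tested on simulated data. Each region was assigned to the protein-coding gene (RefSeq GRCm38.p6, 21900 genes, no strand) with the nearest annotated end within 50 kb, so a gene's own and its neighbours' sites cannot be told apart. To compare places at equal count and width, the other classes were weighted to the bins of the stretched-only regions. Start windows were not used for chromosome 18. Region sequences away from start windows, and therefore the motif shares and sequences planned for all regions, were not analysed here. The members and the gene lists were chosen with earlier results of these data known. Named genes were the 30 with the most regions, the nearest genes of the 12 largest folds and of the 8 largest enrichments, and up to 3 per list with the most regions; a few items are not reported here. Genes of the printed sequences, long genes, runs, the lowest folds and the strong regions were chosen after values were seen. Python 3.11.15 with scipy 1.17.1, numpy 2.4.6, matplotlib 3.10.9 and pandas 2.3.3 did the rest. Alternatives were other scalings (DESeq2 1.42.0 among them), peak, count and interval limits, and gene distances.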

Additional observations from a re-analysis of the deposited data

How the results depend on the processing

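The number of regions stayed within 1.5 times of 13336 (9830 to 13767) under 7 alternatives of peak threshold, overlap, chromosomes and count, and was 6682 with a summed count of 40 to 99. The median log2 fold, 0.47 as reported, was -0.033 under scaling by total counts, a reversal given by that scaling's shift of all regions. It was 0.33 when scaled outside the 10 large regions, 0.47 with DESeq2 size factors, 0.59 with the count trend removed, 0.46 with a pseudocount, 0.45 with both peak lists at -log10 q of at least 3, 0.54 with only stretched peaks so limited, 0.45 at 20 to 59 counts, and 0.53 without regions whose stretched count was below the summit pileup, an alternative added after the data were seen. Calls upward numbered 1486 at 40 to 99 counts, 954 under total scaling and 1869 with a 99% interval; calls downward numbered 80, 899 and 77 in these settings, 288 outside the large regions, 87 with stretched peaks limited and 65 without counts below the pileup. The share within 1 kb was 6.30% with both peak lists limited, 7.38% at 40 to 99 counts, 5.28% at 20 to 59, 4.18% within 500 bp, 18.3% within 5 kb, 4.90% from the region centre and 2.98% for annotated starts. The share inside a gene was 49.5% with stretched peaks limited, 51.3% at 40 to 99 counts and 59.3% for any annotated gene. Genes with 3 or more regions numbered 377 with stretched peaks limited, 171 at 40 to 99 counts, 75 within 10 kb and 1101 within 100 kb. The lists held 137 regions at 40 to 99 counts and 102 within 10 kb. Of the 88 counts for named genes and lists, 78 were lower by more than 1.5 times within 10 kb, and 63 at 40 to 99 counts. Several others fell by less in these settings. With regions first assigned to the gene that holds them, 3 of these counts were higher by more than 1.5 times. They were those of Trp63 (8), Egfr (4) and the basal list (24), and several others rose by less. In that setting 1041 genes had 3 or more. Apart from those set by construction (fewer counts, distances or peaks), the causes were not tested. No paired analysis was possible because each group has 1 library and no test was run.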
